A study of Mus musculus with 2 samples.

Results

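The subunits of Polycomb repressive complex 1 (PRC1) were described in total RNA-seq of mouse embryonic stem cells (mESCs), for 10 genes: Ring1, Rnf2, Pcgf1, Pcgf2, Pcgf3, Pcgf6, Cbx7, Phc1, Rybp and Kdm2b. The genes were taken by name, with each of their entries in the expression table, by a rule that uses no measured value, although the set was drawn up with earlier results of these data known. They gave 14 of the 37178 records of the table and 10 of its 29833 genes. A record is the transcript chosen to represent a gene within a transcript class, so a gene can have a protein-coding record and a long noncoding (lncRNA) record. Each of the 10 genes had a protein-coding record, and Rnf2, Pcgf2, Pcgf6 and Kdm2b had a lncRNA record as well. In the GENCODE M21 annotation these 4 lncRNA records are noncoding processed transcripts of the same gene, not separate genes.

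The cells were F123, a male mESC line from an F1 hybrid of S129/Jae and Cast mice, with no treatment or mutation, grown with LIF and moved off feeder fibroblasts onto gelatin before harvest. The 2 groups compared are the 2 haplotypes within the same cells, CAST and S129, told apart by sequence variants in the reads. RNA of 2 biological replicates was sequenced, and the table holds 1 pooled column for both, so no spread between replicates can be given for any value. F123 is a single cell line from a single cross, so strain, parent of origin and any feature of the line itself cannot be told apart.

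PRC1 is a repressive chromatin complex that places ubiquitin on histone H2A. Its catalytic core is a RING-type ubiquitin ligase, RING1 or RNF2 (also called RING1B), paired with 1 PCGF protein, and the PCGF protein decides which other partners can join. In canonical PRC1 the core binds a CBX protein, which reads the histone H3 methylation placed by Polycomb repressive complex 2 (PRC2), and a PHC protein, which can polymerise and compact chromatin. In variant PRC1 the core binds RYBP or its paralog YAF2 in place of CBX. The variant complex built on PCGF1 contains KDM2B, whose CxxC zinc finger binds unmethylated CpG dinucleotides and brings the complex to CpG islands. In mESCs PRC1 is known for holding developmental genes silent.

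For Kdm2b, Cbx7 and Rnf2 the annotated starts help to read the values that follow, and the sequences before 4 of them are printed here. Each is 250 bases upstream of a RefSeq start on the GRCm38.p6 build, read 5′ to 3′ on the strand of the gene, with every CpG (the letters CG, which read alike on both strands) in capitals. They are reference sequences, not the CAST or S129 alleles. The windows lie at chr5:122900351-122900600 (minus strand, Kdm2b, internal start), chr5:122989100-122989349 (minus strand, Kdm2b, upstream start), chr15:79932647-79932896 (minus strand, Cbx7) and chr1:151500992-151501241 (minus strand, Rnf2).
Kdm2b internal start: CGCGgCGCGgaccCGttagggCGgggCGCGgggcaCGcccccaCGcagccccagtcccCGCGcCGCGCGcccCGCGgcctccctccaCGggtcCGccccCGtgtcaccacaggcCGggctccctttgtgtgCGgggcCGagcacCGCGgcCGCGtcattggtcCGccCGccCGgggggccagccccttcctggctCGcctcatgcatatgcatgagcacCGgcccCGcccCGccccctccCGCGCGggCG
Kdm2b upstream start: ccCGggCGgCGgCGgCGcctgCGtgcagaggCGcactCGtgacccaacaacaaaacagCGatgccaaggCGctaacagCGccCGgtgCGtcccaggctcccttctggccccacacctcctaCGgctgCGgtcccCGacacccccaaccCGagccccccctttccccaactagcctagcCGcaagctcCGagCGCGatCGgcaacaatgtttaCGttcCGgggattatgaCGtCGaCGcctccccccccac
Cbx7: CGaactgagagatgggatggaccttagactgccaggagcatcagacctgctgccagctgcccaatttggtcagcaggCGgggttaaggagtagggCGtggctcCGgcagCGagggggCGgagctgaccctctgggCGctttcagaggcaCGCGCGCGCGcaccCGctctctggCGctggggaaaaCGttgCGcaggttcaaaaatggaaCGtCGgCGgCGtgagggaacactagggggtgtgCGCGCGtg
Rnf2: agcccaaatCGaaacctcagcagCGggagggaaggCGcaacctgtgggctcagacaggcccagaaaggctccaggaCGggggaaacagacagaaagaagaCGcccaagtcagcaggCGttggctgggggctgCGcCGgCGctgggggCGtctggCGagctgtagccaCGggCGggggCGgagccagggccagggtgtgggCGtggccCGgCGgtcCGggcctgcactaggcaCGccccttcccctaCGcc

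The window at the internal Kdm2b start held 38 CpGs, and 1.88% of 32851 RefSeq windows of the same length held as many or more. The printed upstream Kdm2b window held 27 (8.56% held as many or more), the Cbx7 window 23 (13.3%) and the Rnf2 window 20 (17.9%). The median over all windows was 6. Kdm2b has 4 windows in all, and those not printed held 36 CpGs (a second internal start) and 12 (a second upstream start, 33.5%). For 8 of the 10 genes a window was matched by symbol, and for Pcgf1 and Rybp none was. Among the other matched genes, the Ring1 window held 30 CpGs, Pcgf3 16, Pcgf6 14, Phc1 8 and Pcgf2 5. The RefSeq start of the internal Kdm2b window lay 5 bases inside the start of the protein-coding Kdm2b record, while the Cbx7 start lay 38.5 kb downstream of the start of the Cbx7 record, which begins at a more distant annotated start. A count of CpGs describes these letters and says nothing of methylation in the cells.

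Levels are given as TPM (length-normalised transcript abundance), a measure per transcript length and library size, counted by the authors over the exons and introns of each record unless exons alone are named. All 14 PRC1 subunit records were expressed by the threshold of 1 TPM. Their median was 11.9 TPM, against 6.24 TPM over all 17956 expressed records. The 10 protein-coding records ran between 7.55 and 55.7 TPM. Phc1 was the highest of them at 55.7 TPM. Rnf2 and Pcgf2 followed at 18.1 TPM each, then Kdm2b at 13.8, Pcgf6 at 13.5, Pcgf1 at 12.6, Pcgf3 at 11.2, Ring1 at 10.4 and Rybp at 10.4 TPM. Cbx7 was the lowest at 7.55 TPM. With 1 pooled value per record, no neighbouring pair in this order can be called different.

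**Figure D1:**
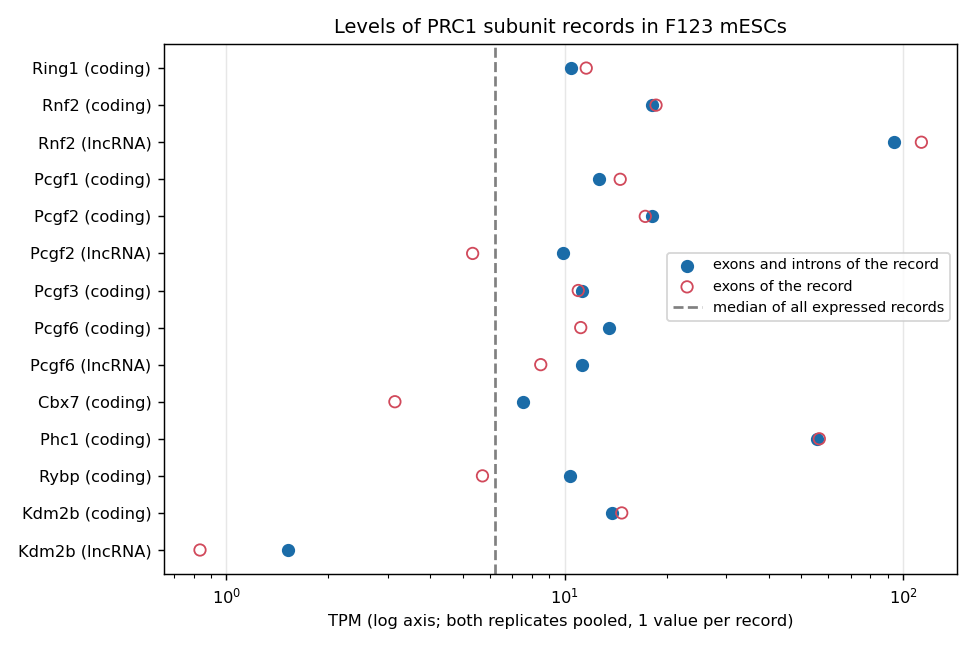
TPM of the 14 PRC1 subunit records on a log axis, counted over exons and introns (filled points) and over exons alone (open points), with the median of all expressed records as a dashed line at 6.24 TPM. Each point is 1 pooled value of both replicates; 12 of the filled points lie to the right of 7.55 TPM, Cbx7 (coding) at that value, and Kdm2b (lncRNA) lies left of the median at 1.52 TPM.

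The labelled cell type was checked against marker genes. With each gene taken at its highest record, all 10 mESC marker genes were above 10 TPM (24.4 to 483 TPM), and their lowest single record stood at 7.67 TPM. Of 9 fibroblast (feeder) markers 4 reached 1 TPM, with the highest at 30.8 TPM, and of 8 early lineage markers 7 did, with the highest at 21.4 TPM. The part of feeder or differentiating cells in the PRC1 values was not tested.

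Allelic balance was measured as the CAST and S129 reads over the variants of a record, and tested with a two-sided exact binomial test against an equal share, with Benjamini-Hochberg adjustment over all 18632 records with allelic reads. A record was called to have allele-specific expression (ASE) with an adjusted p of at most 0.05, a fold difference of at least 2 and at least 1 TPM. All 14 records had allelic reads, between 13 and 5699, with a median of 832.5 (397 over the 15935 expressed records with reads). Intervals are exact 95% (Clopper-Pearson) and errors of log2 ratios are standard errors from the read counts. Both cover counting error only, and a read that spans several variants may have been counted at each. In bulk RNA, fewer cells with transcripts of an allele and fewer such transcripts per cell cannot be told apart.

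Of the PRC1 subunit records, 1 of 14 (7.14%) was an ASE record, the protein-coding record of Kdm2b, with CAST higher. The background was 14.1% of expressed records, with 8.33% higher on CAST and 5.78% higher on S129. Without the fold minimum, 6 of 14 records (42.9%) from 5 genes passed the adjusted p, where 48.3% of all expressed records did. CAST was higher in 3 of them (Kdm2b, Cbx7 and the protein-coding record of Pcgf6), where 25.4% of the background passed in that direction, and S129 was higher in 3 (both Rnf2 records and Rybp), against 22.9%. With a fold minimum of 1.5 in place of 2, 5 of the 14 records (35.7%) were called, those of Kdm2b (coding), Cbx7, Rnf2 (both) and Rybp, against 25.8% of the background. Between the 2-fold limits lay the whole interval of 11 of the 14 records. Interval width depends on depth, and the same share over all expressed records was not computed, so this count describes these records only. The exceptions to it were both Kdm2b records and the lncRNA record of Pcgf2, and the 2 lncRNA records among them had 13 and 55 reads. The median absolute log2 ratio of the 14 records was 0.30, against 0.36 over all expressed records with reads.

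**Figure D2:**
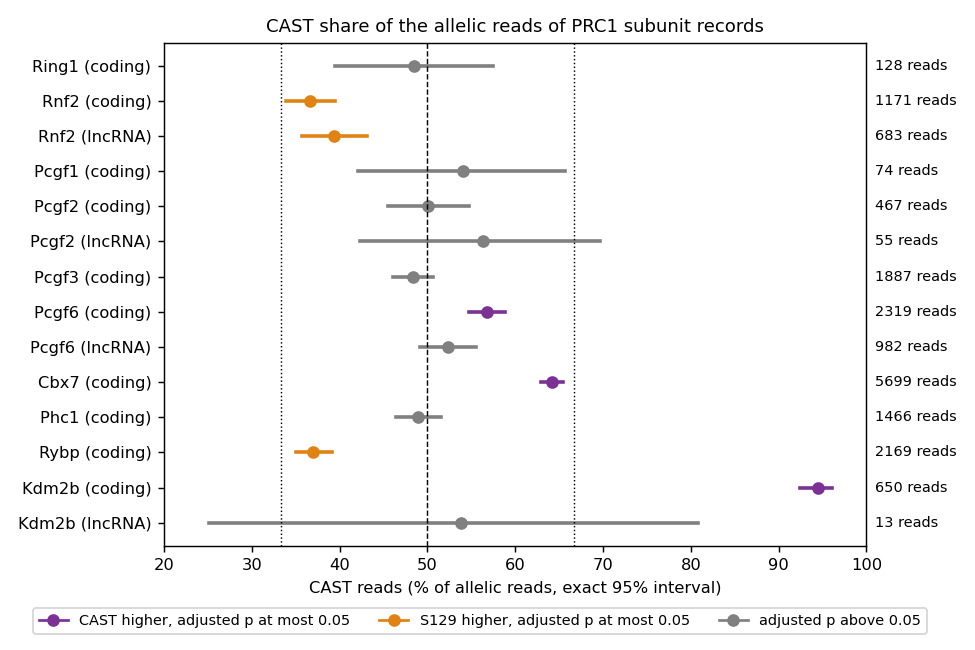
CAST reads as a percent of all allelic reads of each PRC1 subunit record, with exact 95% intervals (counting error only) and the number of reads at the right. The dashed line marks an equal share and the dotted lines a 2-fold difference; the protein-coding Kdm2b record stands at 94.5%, and Cbx7 at 64.2% is the next highest.

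Of the catalytic pair, Rnf2 had fewer CAST than S129 reads and Ring1 did not pass the test. Ring1 (chr17:34020792-34024680, minus strand) had 62 CAST and 66 S129 reads, a CAST share of 48.4% (95% interval 39.5 to 57.4), over 7 variants (exact binomial test, adjusted p = 0.881). Rnf2, the main RING subunit in mESCs (chr1:151469406-151500955, minus strand), was read 429 times from CAST and 742 times from S129 in the protein-coding record, a CAST share of 36.6% (33.9 to 39.5), with a log2 ratio of CAST over S129 of -0.79 ± 0.09 (SE) and S129 higher by 1.73-fold (exact binomial test, adjusted p = 5.35e-19). That difference stayed below the 2-fold minimum of the ASE call. The Ring1 interval, from 128 reads, includes an equal share, and the difference between the genes was not tested. At the level of TPM, Rnf2 stood at 18.1 and Ring1 at 10.4.

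The lncRNA record of Rnf2 also had fewer CAST reads, 269 against 414 for S129, a share of 39.4% (35.7 to 43.2) and a log2 ratio of -0.62 ± 0.11 (exact binomial test, adjusted p = 1.7e-07). This transcript spans 2801 bases with introns, has 570 exon bases (chr1:151471319-151474119) and lies wholly inside the protein-coding record and starts 26.8 kb downstream of its start. It rested on 2 exonic variants with a mean of 341.5 reads per variant, while the protein-coding record had 31 variants with a mean of 37.8. A gene model on the same strand, Gm36527, overlaps 3029 bases of the protein-coding record. The level of the Rnf2 lncRNA record was 93.8 TPM, 5.17 times that of the protein-coding record and at percentile 96.8 of expressed lncRNA records. Exons of the protein-coding record make up 19.4% of the lncRNA span, and the exon TPM of the lncRNA record was 113. Since the spans overlap, reads of the protein-coding transcript can count for both, and the shares are not independent measurements. The part of the protein-coding transcript in the level and share of the lncRNA record was not tested. The coding minus lncRNA difference in CAST share was -2.75 percentage points.

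The PCGF proteins pair with the RING subunit and define the type of complex, and of their 4 genes only Pcgf6 passed the test. Pcgf1, the PCGF of the KDM2B complex (chr6:83078346-83080855, plus strand), had 40 CAST and 34 S129 reads at 1 variant, a share of 54.1% (42.1 to 65.7). Pcgf2, a PCGF of canonical PRC1 also called MEL18 (chr11:97689820-97699641, minus strand), had 234 CAST and 233 S129 reads, a share of 50.1% (45.5 to 54.7) over 17 variants. Pcgf3, of a variant complex (chr5:108461232-108506976, plus strand), had 913 CAST and 974 S129 reads, a share of 48.4% (46.1 to 50.7) over 51 variants. None of these passed the exact binomial test (adjusted p = 0.690 for Pcgf1, 1 for Pcgf2 and 0.268 for Pcgf3). The Pcgf1 interval is the widest of the 3, since it rests on 74 reads.

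Pcgf6, whose variant complex contains MAX and MGA and binds germline genes in mESCs (chr19:47033617-47050904, minus strand), had 1318 CAST and 1001 S129 reads, a CAST share of 56.8% (54.8 to 58.9). The log2 ratio was 0.40 ± 0.06, or 1.32-fold (exact binomial test, adjusted p = 3.36e-10). Its lncRNA record, which lies wholly inside the protein-coding one, had 514 CAST and 468 S129 reads, a share of 52.3% (49.2 to 55.5), and did not pass the exact binomial test (adjusted p = 0.247). The coding minus lncRNA difference was 4.49 percentage points, and the levels were 13.5 TPM for the coding and 11.2 TPM for the lncRNA record. For Pcgf2 the lncRNA record had 31 CAST and 24 S129 reads, a share of 56.4% (42.3 to 69.7, exact binomial test, adjusted p = 0.554), with a difference of -6.26 points and levels of 18.1 TPM for the coding and 9.89 TPM for the lncRNA record. As the lncRNA records of Pcgf2 and Pcgf6 lie within the coding records, no test of these differences was made.

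Of the 2 canonical partners, Cbx7 was higher on CAST and Phc1 did not pass the test. Cbx7, a chromodomain subunit of canonical PRC1 that is well known from mESCs (chr15:79918449-79971118, minus strand), had 3659 CAST and 2040 S129 reads, a share of 64.2% (62.9 to 65.5). The log2 ratio was 0.84 ± 0.04, or 1.79-fold (exact binomial test, adjusted p = 1.94e-101), below the ASE fold minimum. It had the most allelic reads of the 14 records and the most variants, 149. Of these, 55.0% had the non-reference base on S129, where the share over all records was 11.1% and over the neighbouring records 15.0%. The part of this base assignment in the Cbx7 ratio was not tested. Phc1 (chr6:122334134-122339708, minus strand) had 718 CAST and 748 S129 reads, a share of 49.0% (46.4 to 51.6, exact binomial test, adjusted p = 0.585), in a record that covers 24.4% of the annotated gene.

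Cbx7 also had the lowest ratio of exon TPM to TPM over exons and introns among the 14 records, 3.15 against 7.55 TPM, or 0.417. Its record begins 1 base from the most upstream annotated start and has 528 exon bases, of which 185 are coding. Of 9 annotated transcripts 2 begin within 1 kb of that start, and the other 7 begin 37.2 to 38.6 kb downstream of it. Reads of the transcripts that begin downstream fall within the same record, so its value cannot be told apart by start.

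Rybp, a core subunit of variant PRC1 that stimulates the ligase (chr6:100228565-100287485, minus strand), had fewer reads on CAST. It had 803 CAST and 1366 S129 reads, a share of 37.0% (35.0 to 39.1) and a log2 ratio of -0.77 ± 0.06, with S129 higher by 1.70-fold (exact binomial test, adjusted p = 1.31e-32). Of its 77 variants 72 were intronic, and in all 77 the non-reference base was on CAST. Its exon TPM was 5.71, against 10.4 TPM over exons and introns. A pseudogene on the opposite strand, Gm18422, overlaps 3117 bases of the record, and on the same strand Gm44045 overlaps 2520 bases and Gm44044 1089. Whether the allelic counts used the strand is not given in the sources used here.

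Kdm2b was the 1 gene of the 10 with an ASE record. Its protein-coding record (chr5:122870668-122900355, minus strand) had 614 CAST and 36 S129 reads, a CAST share of 94.5% (92.4 to 96.1). The log2 ratio was 4.09 ± 0.25, or 17.1-fold (exact binomial test, adjusted p = 8.39e-135), and the level of the record was 13.8 TPM. The reads came from 10 variants, 3 exonic and 7 intronic, at a mean of 65.0 reads per variant, and in 1 of them the non-reference base was on S129. Reads from S129 were present but few.

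**Figure D3:**
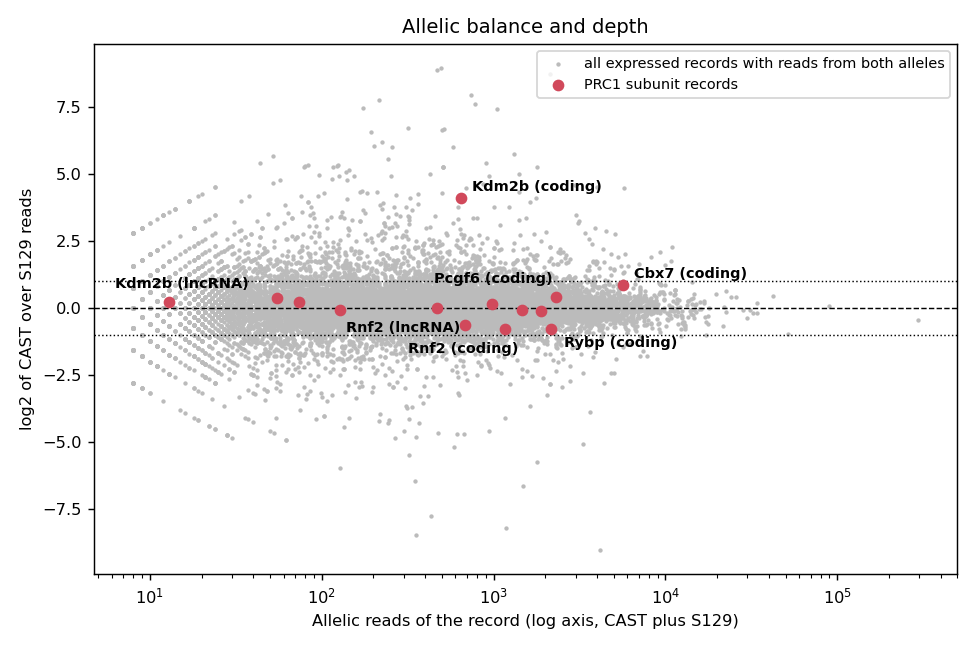
Log2 of CAST over S129 reads (vertical) against allelic reads on a log axis (horizontal) for PRC1 subunit records (red) and all expressed records with reads from both alleles (grey); dotted lines mark a 2-fold difference. The protein-coding Kdm2b record sits at 4.09 with 650 reads, and the other red points lie between -0.79 and 0.84.

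The ASE record of Kdm2b covers only a part of the gene. It is 24.9% of the annotated length, and its start lies 89.5 kb downstream of the first annotated start, at the CpG-rich internal start printed above. A short form of mouse KDM2B made from an internal start is known, which keeps the CxxC zinc finger and lacks the JmjC demethylase domain. Of the 20 annotated Kdm2b transcripts 13 overlap the span of the record, and 9 of these begin upstream of it. Reads over the span can therefore come from transcripts of either kind of start, and the pooled count cannot be told apart by start. The gene Rnf34, on the opposite strand, overlaps 624 bases of the record, and its own record had 51 CAST and 28 S129 reads at 6.74 TPM.

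The lncRNA record of Kdm2b (chr5:122934856-122951990) does not overlap the coding record and ends 34.5 kb upstream of its start. It had 7 CAST and 6 S129 reads at 1 intronic variant, a share of 53.8% (25.1 to 80.8, exact binomial test, adjusted p = 1), at 1.52 TPM. The coding minus lncRNA difference was 40.6 percentage points. As the pair was singled out for this difference, it is given as a description. The lncRNA side rests on 13 reads at a single variant, which is below the coverage minimum per variant that the methods describe, so how this count passed is not known, and 13 annotated Kdm2b transcripts overlap that span as well. Over the 4 genes with both records, Kdm2b had the widest difference, and the other 3 differed by less than 10 points.

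**Figure D4:**
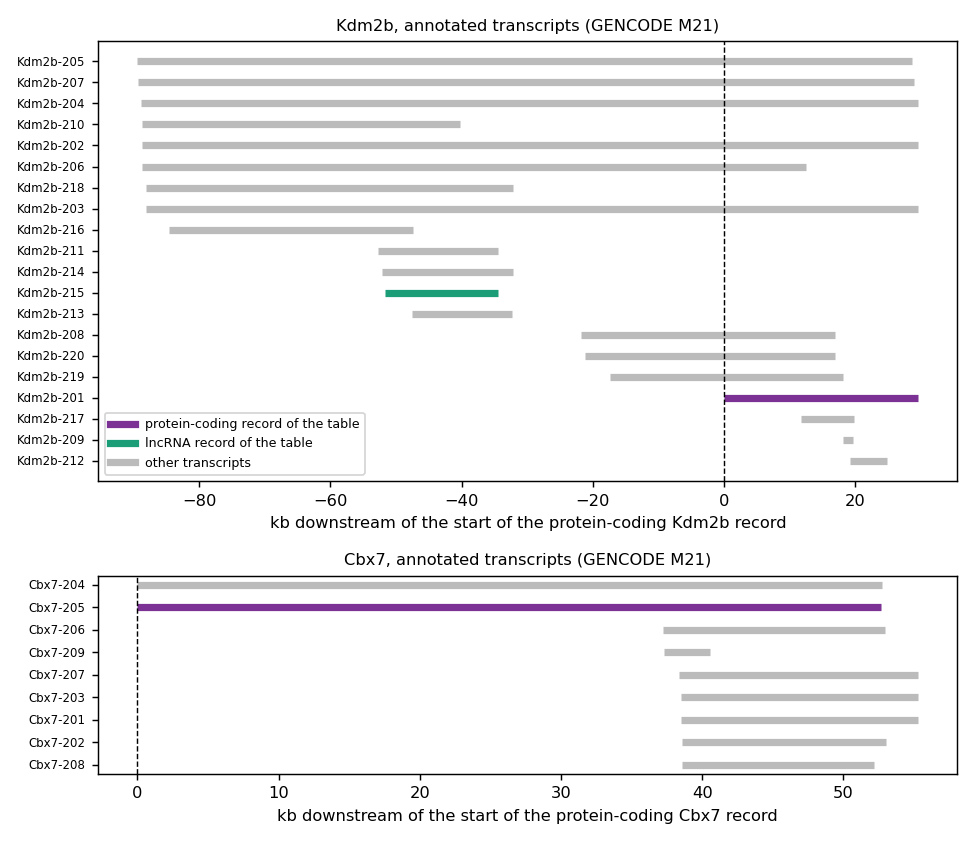
Annotated transcripts of Kdm2b (20, upper panel) and Cbx7 (9, lower panel) as lines from start to end, in kb downstream of the start of the protein-coding record, with the protein-coding record in purple and the lncRNA record in green. The protein-coding Kdm2b record starts 89.5 kb downstream of the first annotated start, and the Cbx7 record starts at least 37.2 kb upstream of 7 of the other transcripts.

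Error beyond counting was tested with a beta-binomial model, in which reads of a record share an assumed correlation. With a correlation of 0.01, Kdm2b (adjusted p = 1.59e-24) and Cbx7 (adjusted p = 0.0317) passed, and the protein-coding records of Rnf2 (0.0606) and Pcgf6 (0.479), the lncRNA record of Rnf2 (0.198) and Rybp (0.0633) did not. With 0.05, Kdm2b alone passed this model, fitted with exact beta-binomial tails (adjusted p = 2.48e-05). The data hold no replicate values from which that correlation could be estimated. Under this model the share of all expressed records past the adjusted p was not computed.

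Around the 5 subunit genes with a difference, the expressed records within 500 kb of the protein-coding record were compared with it. Over all expressed records 14.1% were ASE records, and 25.4% passed the adjusted p with CAST higher and 22.9% with S129 higher. Near Cbx7, 7 of 30 neighbouring records were ASE records, all higher on CAST, and 17 passed the adjusted p with CAST higher against 3 with S129 higher, so the CAST share of Cbx7 (64.2%) stood beside a median of 57.9% in its neighbours. Near Kdm2b, 5 of 32 were ASE records, 4 with CAST and 1 with S129 higher, and Kdm2b itself at 94.5% stood beside a median share of 53.7%. Near Rnf2 (36.6% CAST in its coding record), 3 of 7 were ASE records, 2 with CAST and 1 with S129 higher, and the median share was 46.7%. Near Pcgf6 (56.8%) none of 22 was an ASE record and the median was 50%. Near Rybp (37.0%) 0 of 2 were, both from 1 gene, with a median of 45.2%. Records past the adjusted p with CAST and with S129 higher numbered 10 and 6 near Kdm2b and 2 and 3 near Rnf2. They numbered 5 and 4 near Pcgf6, and 0 and 1 near Rybp. Neighbouring records share sequence context and are not replicates, and these counts were not tested. The counts are of records, and the 30 near Cbx7 came from 24 genes and the 32 near Kdm2b from 23. Both records of Cbx6 near Cbx7 and of Camkk2 near Kdm2b are among the ASE records. Also among those near Kdm2b, A930024E05Rik (216 CAST and 84 S129 reads) and Gm44574 (228 and 90) lay close together.

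**Figure D5:**
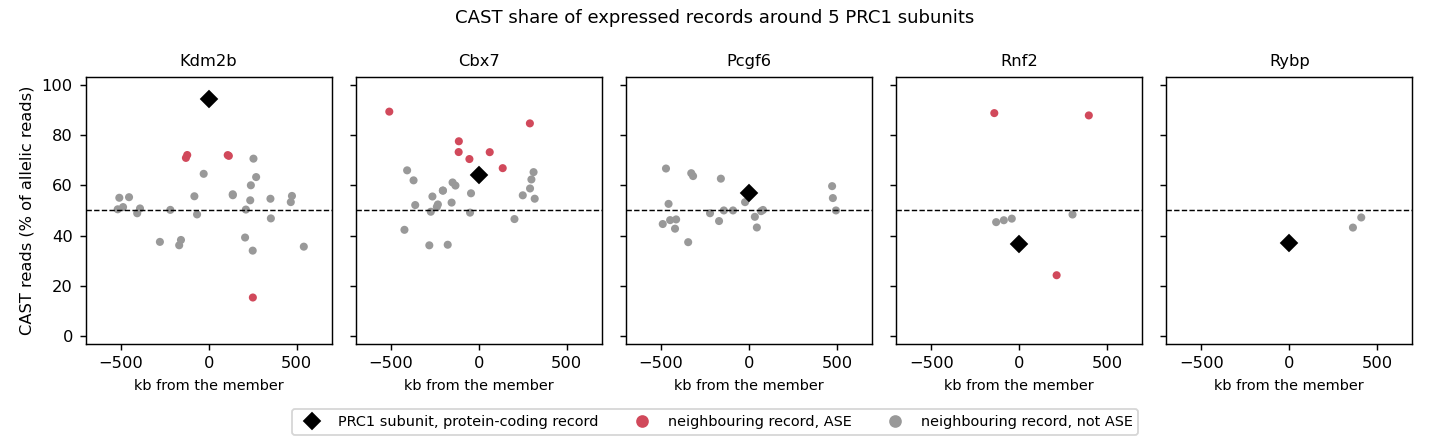
CAST share of the expressed records within 500 kb of 5 PRC1 subunit genes (circles, red where ASE) against the distance in kb between record midpoints, with the subunit's protein-coding record as a black diamond at 0 and an equal share as a dashed line. Kdm2b at 94.5% lies above every neighbour shown, and the Cbx7 panel has 7 ASE neighbouring records, each above 50%.

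The levels of the subunits were set beside those of their paralogs, which can take the same place in a complex. Among chromodomain proteins, Cbx7 stood at 7.55 TPM, against 9.82 for Cbx2, 9.31 for Cbx6 and 1.08 for Cbx8 in their protein-coding records. Cbx2 and Cbx6 were thus listed above it. TPM is per length, and these records span 52669 bases for Cbx7, 8308 for Cbx2, 8096 for Cbx6 and 4664 for Cbx8. The part of record span in the order of paralogs was not tested. The other members named here were listed above their paralogs. Phc1 stood at 55.7 TPM, against 3.60 for Phc2 and 3.43 for Phc3. The Phc1 record spans 5574 bases, 24.4% of its gene, against 17298 bases for Phc2 and 70030 for Phc3. Among PCGF genes, Pcgf2 stood at 18.1 TPM, against 8.98 for Bmi1, its canonical paralog, and Pcgf3 at 11.2 TPM, against 1.87 for Pcgf5. Rybp stood at 10.4 TPM, against 2.17 for Yaf2. Yaf2 had 581 CAST and 344 S129 reads (log2 ratio 0.76, exact binomial test, adjusted p = 5.39e-14), the opposite direction to Rybp. Among coding records of the other paralogs, S129 was higher in Bmi1 (exact binomial test, adjusted p = 0.0196) and Phc2 (adjusted p = 0.0269). CAST was higher in Pcgf5 (exact binomial test, adjusted p = 0.00502) and Cbx6, while Cbx2, Cbx8 and Phc3 did not pass. The Cbx8 record had only 10 allelic reads at 1 variant, against 816 reads for Cbx2 and 885 for Phc3.

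Of 30 other PRC1 and H2A deubiquitination genes, 6 of 43 expressed records with reads (14.0%) were ASE records, from 4 genes, against 14.1% of all expressed records, and 25 (58.1%) passed the adjusted p, against 48.3%, 13 with CAST and 12 with S129 higher. The ASE count fell to 2 with at least 100 reads, a limit that leaves out the Cbx6 and Fbrs records named below. The share of all expressed records called at that limit was not computed. Under the beta-binomial model with a correlation of 0.05 it fell to 2 as well, where 3.06% of all expressed records were called. Both records of Cbx6, which lies near Cbx7 on chromosome 15, were higher on CAST (41 CAST and 15 S129 reads in the coding record, log2 ratio 1.45, and 31 and 9 in the lncRNA record, log2 ratio 1.78). E2f6, a DNA-binding partner of PCGF6, had 100 CAST and 213 S129 reads (log2 ratio -1.09). Both records of Fbrs, of the PCGF3 and PCGF5 complexes, shared 16 CAST and 0 S129 reads at 1 variant, below the coverage minimum of the methods. With S129 set to a floor of 3 reads the ratio was 5.33-fold, a value that rests on the chosen floor and is not a lower bound. The lower end of the exact interval of the log2 ratio was 1.95 in both records. The non-reference base of this variant was on S129, and the part of this base assignment in the Fbrs ratio was not tested. Foxk1, a partner of the BAP1 deubiquitinase that removes the PRC1 mark, had 94 CAST and 46 S129 reads (log2 ratio 1.03). Among records of at least 1 TPM in these lists, the highest levels were those of Csnk2b (105 TPM) and Usp7 (72.1 TPM in the lncRNA and 50.0 TPM in the coding record), and the lowest those of Cbx8, Auts2 (1.15 TPM) and Scmh1 (1.26 TPM).

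Among 11 PRC2 genes, 3 of 18 expressed records with reads (16.7%) were ASE records, against 14.1% of all expressed records, all with CAST higher. The count fell to 1 with 1 record per gene, where the share of all expressed records called was not computed. Under the beta-binomial model with a correlation of 0.05 the count fell to 0, where 3.06% of all expressed records were called. They were the lncRNA record of Jarid2, a PRC2 cofactor, with 4817 CAST and 1955 S129 reads, and both records of Phf19, a Polycomb-like subunit, with 1545 CAST and 710 S129 reads in the coding and 84 and 40 in the lncRNA record. Scml2, Bcor, Bcorl1 and Rbbp7, which also belong to these lists, had no record in the expression table, which holds 19 autosomes. They could not be analysed.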

How the data were processed

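Total RNA-seq of 2 biological replicates of F123 mESCs was used. Per the labels, reads were mapped to mm10 (GRCm38.p6) with STAR 2.7.2c. The authors removed duplicates, kept 1 transcript per gene and transcript class, and pooled both replicates. Where several isoforms were annotated, the choice was by RNA polymerase II occupancy, and by length or at random where that did not decide. The deposited counts are whole allelic reads, summed by the authors over variants in exons and introns. They held 8230836 CAST and 8112857 S129 reads (50.4% CAST), and 8 to 295934 per record. The methods state a minimum of 20 reads per variant, yet some records hold fewer in all, so the basis of such counts is not known. The deposited TPM values were made by the authors with HTSeq over exons and introns, or over exons alone. Variant numbers and record lengths were used as deposited. Columns with the authors' p-values, fractions of CAST reads and log2 ratios hold their own comparison and were not used.

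From the counts, log2 of CAST over S129 reads, exact binomial tests and Benjamini-Hochberg adjusted p-values were computed with scipy 1.17.1 over all 18632 records with reads. The thresholds were an adjusted p of 0.05, a 2-fold difference and 1 TPM. Standard errors were those of a log ratio of 2 Poisson counts. The test was checked on simulated data. CpG counts came from RefSeq windows, and positions and transcripts from GENCODE M21, whose coordinates matched those of all 14 member records. Genes named are all members with every record, paralogs (1 is not reported here), and, of other PRC1 genes, every ASE record and the 3 highest and 3 lowest TPM (of PRC2 genes, ASE records). Members and lists were chosen with earlier results of these data known. The alternatives covered the null share, error beyond counting, the thresholds, minimum reads and the choice of records.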

Additional observations from a re-analysis of the deposited data

How the results depend on the processing

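No paired analysis was possible because both replicates are pooled in 1 column, which also allows no fit without a replicate. With the CAST share of all reads as the null, adjustment over expressed records, an adjusted p of at most 0.01 or 1 read added to each allele, the sign and the call of all 14 PRC1 subunit records held. With the beta-binomial model, subunit records past the adjusted p numbered 2 (correlation 0.01) and 1 (0.05), against 6. The same share over all expressed records was not computed. At 0.05, ASE records fell to 2 among other PRC1 genes and 0 among PRC2 genes, and 3.06% of all expressed records were called. With a fold minimum of 1.5, 5 subunit records were called (25.8% of all expressed records), 10 among other PRC1 genes and 5 among PRC2 genes. With at least 100 reads, which leaves out the Cbx6 and Fbrs records, 2 other PRC1 records were called. With protein-coding records alone, or 1 record per gene, 1 PRC2 record was called. Of all expressed protein-coding records with reads 12.7% were called, and the share with 1 record per gene was not computed. The median absolute log2 ratio of the subunit records was 0.37 with at least 20 reads, 0.40 with at least 100, 0.29 with 1 read added, and 0.32 with 1 record per gene or protein-coding records alone, which also gave a median of 13.0 TPM. The median absolute coding against lncRNA difference was 5.37 percentage points, 5.26 with 1 read added and 4.49 with at least 20 reads in both records, both chosen after seeing the data. Depth limits the lncRNA record of Kdm2b (13 reads), that of Pcgf2 (55) and Pcgf1 (74), whose intervals reach from 25.1 to 80.8%, 42.3 to 69.7% and 42.1 to 65.7%.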

Other observations

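Around the subunit genes that did not pass the allelic test, neighbouring expressed records within 500 kb were called as follows, where 14.1% of all expressed records were ASE records. Near Ring1, 5 of 48 were ASE records, 1 with CAST and 4 with S129 higher. Near Pcgf1, 3 of 31 were, all with S129 higher, and near Pcgf2 4 of 35 were, 3 with CAST and 1 with S129 higher. Near Pcgf3, 2 of 17 were, and near Phc1 2 of 13, each with 1 in either direction. Both records of Rps18 near Ring1, of Slc4a5 near Pcgf1 and of Cisd3 near Pcgf2 are among these, so the counts are of records, not genes.

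The exon TPM stood below the TPM over exons and introns in 8 of the 14 PRC1 subunit records. The ratio was 0.417 in Cbx7, 0.540 in the lncRNA record of Pcgf2, 0.549 in that of Kdm2b and 0.550 in Rybp, and it reached 1.21 in the lncRNA record of Rnf2. Over all expressed records the median ratio was 0.905. The ratio was 1.22 in several of the marker genes, so 1 is not a neutral point and the count below it is a description.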
